A study of Mus musculus with 20 samples.

Results

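Microglial transcripts of mice labelled hC4A/- were compared with those of mice labelled C4-/-. The comparison took 10 of the series' 20 libraries, the 5 with the label hC4A/- (read here as human C4A on 1 allele) and the 5 with the label C4-/-, chosen by the sample titles alone. All mice were at postnatal day 40, and from the frontal cortex of each, 1000 microglia were sorted by high CD11b and low CD45, their cDNA was made by template switching, and libraries followed the Nextera protocol. The other 10 libraries, labelled WT, hC4B/- and hC4A/A, entered the same fit, and so its filter on low counts, scaling and estimate of spread. The hC4B/- libraries also served for 1 further contrast. The labels give no sex and do not describe the construct that carries human C4A. Every counted gene identifier is a mouse gene, so transcripts of the human C4A gene were not measured. Each library was taken as 1 mouse, and p values measure the spread between these libraries.

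C4 is the complement protein that joins C2 to form the classical pathway convertase after the C1 complex (C1q, C1r and C1s) has bound its target, and it leads to deposition of C3 fragments on the marked surface. In the developing brain, microglia carry receptors for these fragments and take up tagged synapses. Microglia also make most of the C1q of the brain, while C4 comes mainly from other cells. Humans have a C4A and a C4B gene, whereas the mouse equivalents are C4b and its close relative C4a, the sex-limited protein.

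No gene passed the test. Of 12680 genes tested in edgeR's quasi-likelihood model with Benjamini-Hochberg adjustment, 0 had an adjusted p under 0.05 (0.0%), and the smallest adjusted p was 0.415. Before adjustment, 318 genes (2.51%) were higher and 1037 genes (8.18%) were lower in hC4A/- at p under 0.05. Other tools, run on the same counts, called few genes: DESeq2 called 16 of 9096 genes (0.176%) and limma-voom 1 of 12680 (0.00789%), the zinc-finger gene Zfp383. The values below are therefore descriptions of 5 libraries against 5. Where a gene is said to be higher or lower, this refers to the measured levels, given as CPM, gene counts scaled to a common library size with TMM factors. Log2 fold changes are hC4A/- over C4-/- with their standard error from the edgeR fit.

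The excess of lower over higher genes moved with the libraries and settings used. C4-/- replicate 3 held counts for 27178 genes, against 11995 to 23912 in the other 4 libraries of that label and 11348 to 18753 in hC4A/-. Of the 1037 genes that were lower in hC4A/-, 468 had their highest C4-/- level in that replicate, 411 kept an unadjusted p under 0.05 without it, and 139 were no longer tested. Without it, 0 of 12089 genes were called (0.0%, smallest adjusted p of 0.506 in edgeR), and the unadjusted counts were 453 higher (3.75%) and 421 lower (3.48%). Over every gene tested, the median log2 fold change was -0.32 with all libraries, -0.04 without C4-/- replicate 3 and -0.01 without C4-/- replicate 1. It was -0.02 in a fit of only the 10 compared libraries, -0.02 with a stricter filter on low counts and -0.81 in DESeq2. With the satellite-like genes left out before scaling, 623 of 1800 genes at an unadjusted p under 0.05 were higher, against 318 of 1355. Libraries of hC4A/- held 1129302 to 2735181 gene counts and those of C4-/- 1143140 to 1758323. The share of 13 satellite-like predicted genes was 13.3% to 58.5% in hC4A/- and 17.6% to 49.9% in C4-/-. Olfactory and vomeronasal receptor genes, which microglia are not known to use, had at least 1 count for 6.09% to 22.0% of 1428 genes in hC4A/- and 6.16% to 55.2% in C4-/-, the maximum in replicate 3. The number of detected genes did not separate the groups (two-sided exact permutation test, p = 0.151, smallest possible 0.00794). The part of this library breadth in any gene's difference was not tested.

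**Figure D1:**
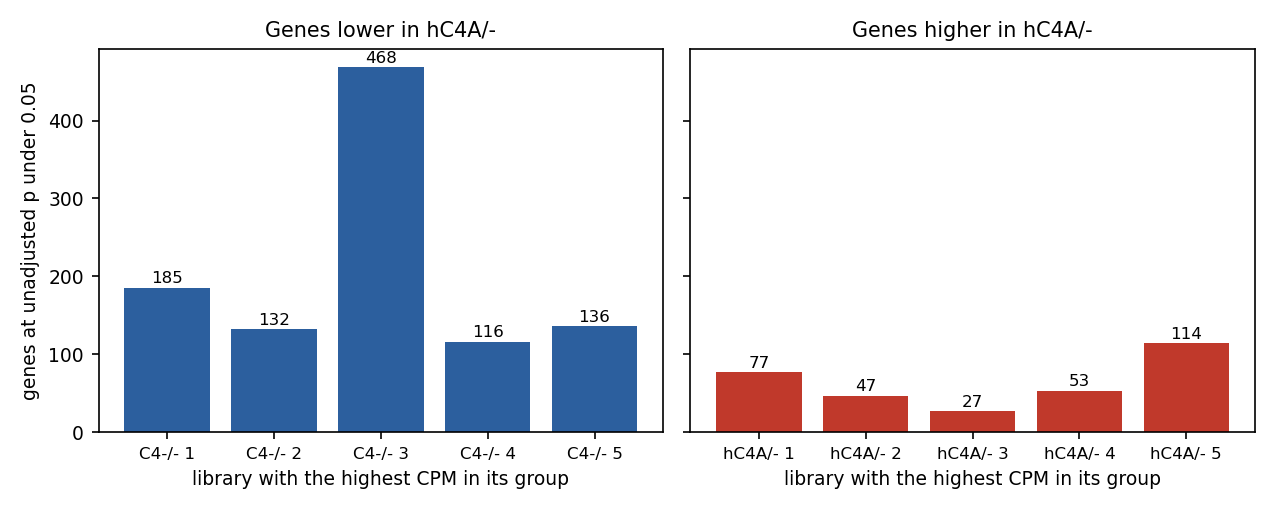
Number of genes at an unadjusted p under 0.05 (vertical axis) by the library that held their highest CPM within its group. Left, genes lower in hC4A/-, by C4-/- library; right, genes higher in hC4A/-, by hC4A/- library. C4-/- replicate 3 was the highest library for 468 of 1037 lower genes, and hC4A/- replicate 5 for 114 of 318 higher genes.

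Mouse C4b (ENSMUSG00000073418, GRCm38 chromosome 17, 34728380 to 34743882, minus strand), the gene that the C4-/- label refers to, was counted in every one of the 10 libraries. It held 18, 5, 5, 23 and 45 counts in hC4A/- replicates 1 to 5, or 12.3, 2.65, 3.4, 13.3 and 15.1 CPM. The libraries labelled C4-/- held 104, 7, 157, 7 and 46 counts, or 59.2, 6.47, 102, 3.72 and 30.3 CPM. The WT libraries ranged from 0 to 1.52 CPM and the hC4B/- libraries from 2.90 to 288 CPM. The hC4A/A replicates 1 and 2 stood at 6.70 and 347.5 CPM. Counts for 30907 genes were held by hC4A/A replicate 2, and for 27178 by C4-/- replicate 3. Whether the C4b level goes with this breadth was not tested. The 2 groups compared overlapped, and the label C4-/- was not matched by an absence of C4b reads, so hC4A/- and C4-/- stand for the labels throughout. The C4b log2 fold change was -2.09 ± 1.06 (edgeR adjusted p = 0.477) and -1.04 without C4-/- replicate 3. C4a, which is nearly identical to C4b so that their reads may be split between them, held 1 count over the 5 hC4A/- libraries and 5 over the 5 C4-/- libraries.

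The cells carried the transcripts that define microglia in all 10 libraries. P2ry12, the purinergic receptor of resting microglia, stood at 373, 402, 465, 436 and 867 CPM in hC4A/- and at 456, 700, 472, 580 and 411 CPM in C4-/-. Tmem119, a microglial membrane protein, ranged from 187 to 393 and from 151 to 505 CPM, and the fractalkine receptor Cx3cr1 from 566 to 943 and from 710 to 1556 CPM. C1qa, a chain of C1q, lay between 437 and 1498 CPM in hC4A/- and between 305 and 1432 CPM in C4-/-. Csf1r, the receptor for colony-stimulating factor 1, was at 2631 CPM in C4-/- replicate 3, against 324 to 784 CPM in hC4A/- and 405 to 1194 CPM in the other C4-/- libraries. All of these ranges overlapped between the labels. In sorted pools of this kind, fewer cells with a transcript and less of it per cell cannot be told apart. Y-linked reads (Ddx3y, Eif2s3y or Kdm5d) were present in 2 libraries of each label and absent in 3 of each, so the labels held the same mix.

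**Figure D2:**
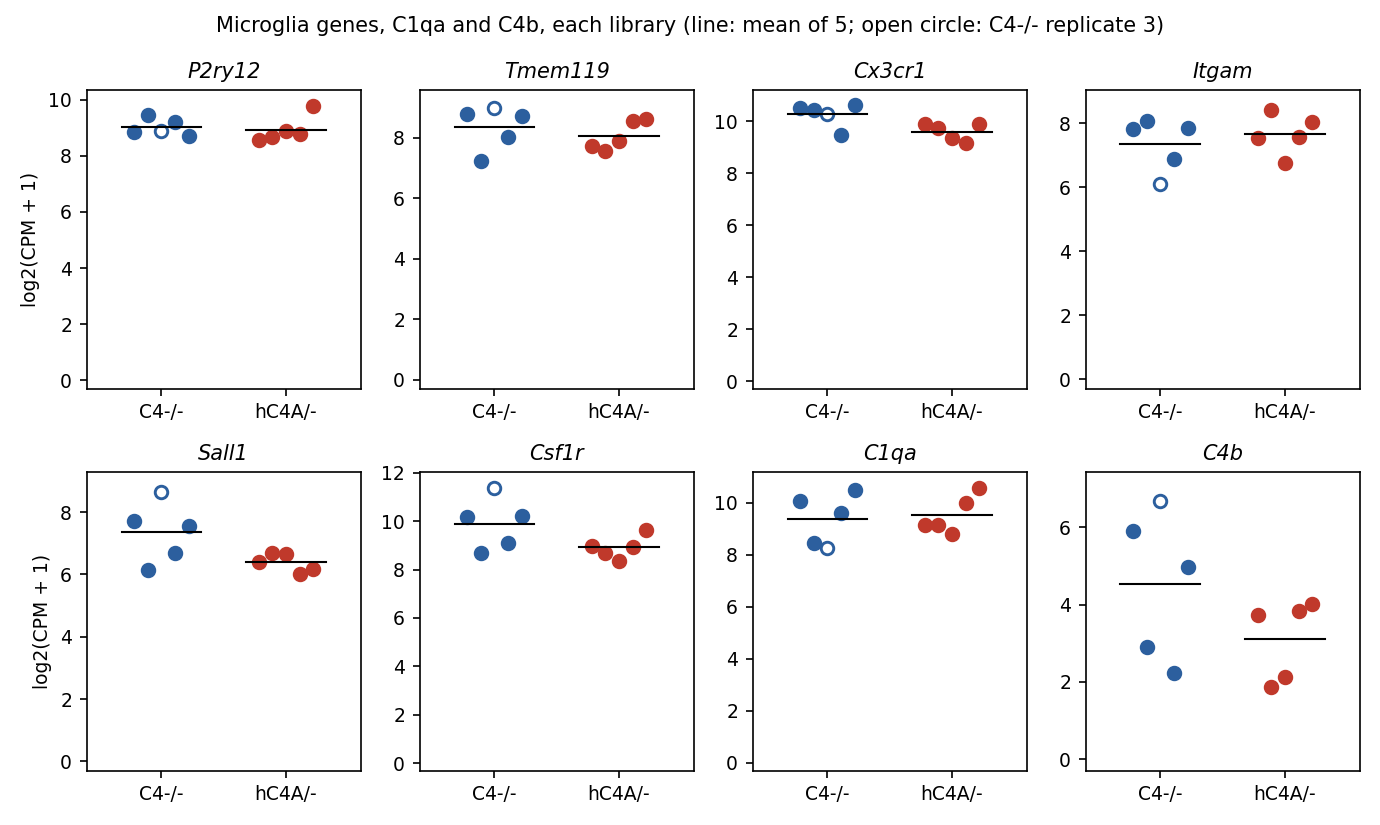
Level of 6 microglia genes, C1qa and C4b in each library, as log2(CPM + 1), by label (horizontal axis). Points are libraries, lines the mean of the 5 log values, and the open circle is C4-/- replicate 3. C4b is above 0 in all 5 libraries labelled C4-/-, and the range of each gene overlaps between the labels.

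Few genes had separated groups. In 27 genes (0.213%) all 5 hC4A/- libraries lay above all 5 C4-/- libraries, and in 104 genes (0.82%) all lay below. For 5 libraries against 5 in random order, the probability of such a separation is 0.00794, shared equally between above and below. Among 12680 genes many would be separated by chance alone, so separation of a gene is not by itself evidence of a difference. Without C4-/- replicate 3, 45 genes (0.355%) were separated upward and 144 (1.14%) downward. Leaving out a library can only keep or add separated genes. Of the 27, 17 had an unadjusted p under 0.05, and 14 protein-coding genes kept this without replicate 3. Of the 104, 67 had a mean under 10 CPM in both labels, while 3 of the 27 did.

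Fosl2 (chromosome 5, 32135801 to 32157842), which encodes the AP-1 subunit Fra-2, stood at 161, 170, 129, 155 and 308 CPM in hC4A/- replicates 1 to 5. In C4-/- it stood at 95.1, 39.7, 16.9, 26.6 and 46.1 CPM. Every hC4A/- library was above the highest C4-/- library. The log2 fold change was 2.04 ± 0.68 (edgeR adjusted p = 0.418), and 2.10 without C4-/- replicate 3. Other immediate early genes did not share this separation. Of 27 tested members of that list, 1 (Fosl2) was higher and 3 were lower at an unadjusted p under 0.05. Over all genes, 2.51% were higher and 8.18% lower at that mark. The list's median log2 fold change was -0.58, against -0.32 over all genes, and 0.10 without C4-/- replicate 3, against -0.04. Among the 3 was Rhob, a small GTPase, at 31.9 to 52.1 CPM in hC4A/- and 39.3 to 312 CPM in C4-/-, with a log2 fold change of -1.89 ± 0.74 that was -1.03 without that replicate.

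Of 271 tested genes named Zfp, a set chosen after the values were seen and not tested as a group, 5 (1.85%) had all hC4A/- libraries above all C4-/- libraries, against 0.213% of all genes, and 1 had them below, against 0.82%. At an unadjusted p under 0.05, 12 of the 271 were higher and 35 lower, against 318 and 1037 of all 12680 genes. The set's median log2 fold change was -0.18, against -0.32 over all genes. Without C4-/- replicate 3, 19 of 267 were higher and 19 lower at that mark, against 453 and 421 of 12089 genes. The medians were then -0.0003 and -0.04. Zfp383 (chromosome 7, 29908223 to 29916813) stood at 72.3, 30.3, 42.8, 41.1 and 94.2 CPM in hC4A/-. It was at 0, 0, 1.94, 0 and 3.29 CPM in C4-/-, where 3 libraries held no count at all. The log2 fold change was 5.65 ± 1.37 (edgeR adjusted p = 0.415), with adjusted p values of 0.032 in DESeq2 and 0.0217 in limma-voom. Zfp873 (chromosome 10, 82048123 to 82064745) stood at 46.4, 40.9, 43.5, 33.0 and 34.0 CPM in hC4A/- and at 3.99, 6.47, 3.89, 6.90 and 4.61 CPM in C4-/-. The 2 sets of 5 were narrow and far apart, with a log2 fold change of 2.92 ± 0.87 (adjusted p of 0.415 in edgeR and 0.0457 in DESeq2). Zfp760 (chromosome 17, 21707741 to 21725636) stood at 284, 57.4, 112, 41.1 and 134 CPM against 5.12, 18.5, 13.6, 3.72 and 33.6 CPM. Its log2 fold change was 3.08 ± 0.91. Zfp97 (chromosome 17, 17121415 to 17146831) held 1, 4, 7, 7 and 109 counts in hC4A/- and none in any C4-/- library. Set against a floor of 3 counts over that group, it was at least 34.9-fold higher in hC4A/-, and at least 7.53-fold higher without hC4A/- replicate 5, which held 109 of its 128 counts. The fifth, Zfp131, stood at 21.2 to 66.0 CPM against 9.24 to 21.1 CPM and had a log2 fold change of 1.42 ± 0.74 with an unadjusted p of 0.0643. Zinc-finger genes of this kind come in families of similar copies, so reads could be split between relatives, and Zfp873 overlaps a gene on the other strand.

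Zfp383, Zfp97, Zfp760 and Zfp873 are DNA-binding proteins of the Kruppel type. Their upstream regions are shown because these 4 genes were all separated in the same direction. Zfp131, also separated upward, is not shown. Both strands were searched for the CCAAT box (letters CCAAT). Each stretch holds the 250 bases before the RefSeq transcription start on GRCm38.p6, 5′ to 3′, with matches in capitals (ATTGG is the same motif on the other strand). They lie at chr7:29908267-29908516, chr17:17121133-17121382, chr17:21707491-21707740 and chr10:82047873-82048122, all on the plus strand. The Zfp383 stretch lies before the RefSeq start but inside the GENCODE gene coordinates given above. For Zfp873, 2 promoters were listed, of which 1 is shown.
Zfp383: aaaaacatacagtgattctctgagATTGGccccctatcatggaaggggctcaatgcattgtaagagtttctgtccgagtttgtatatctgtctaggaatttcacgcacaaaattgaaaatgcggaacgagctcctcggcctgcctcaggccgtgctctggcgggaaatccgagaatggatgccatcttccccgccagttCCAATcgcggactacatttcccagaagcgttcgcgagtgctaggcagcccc
Zfp97: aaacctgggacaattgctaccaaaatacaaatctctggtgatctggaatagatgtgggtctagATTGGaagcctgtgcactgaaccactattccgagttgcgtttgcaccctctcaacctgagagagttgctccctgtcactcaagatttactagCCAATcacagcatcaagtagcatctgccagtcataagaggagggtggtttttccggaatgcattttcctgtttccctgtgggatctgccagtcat
Zfp760: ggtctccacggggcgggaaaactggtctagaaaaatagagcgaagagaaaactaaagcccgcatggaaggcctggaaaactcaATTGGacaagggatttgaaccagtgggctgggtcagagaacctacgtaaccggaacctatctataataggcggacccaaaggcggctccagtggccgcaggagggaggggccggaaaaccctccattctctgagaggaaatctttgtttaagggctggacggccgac
Zfp873: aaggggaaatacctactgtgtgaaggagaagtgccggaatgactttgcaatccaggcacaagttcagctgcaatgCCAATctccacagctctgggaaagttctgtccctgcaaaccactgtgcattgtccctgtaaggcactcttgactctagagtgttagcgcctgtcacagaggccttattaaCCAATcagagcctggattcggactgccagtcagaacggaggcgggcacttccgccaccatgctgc
Zfp383, Zfp97 and Zfp873 each hold 2 matches and Zfp760 holds 1. The same letters occur in 33.8% of all 32851 RefSeq promoters of this length, so a match is common. RefSeq listed a promoter for 26 of the 29 genes of largest or most abundant difference.

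Hs3st3b1 (chromosome 11, 63885792 to 63922290), a 3-O-sulfotransferase that finishes heparan sulfate chains, stood at 40.3, 46.2, 19, 27.8 and 113 CPM in hC4A/-. It was at 4.55, 0.924, 4.54, 0 and 4.61 CPM in C4-/-. No C4-/- library came near the lowest hC4A/- library. The log2 fold change was 4.04 ± 1.02 (adjusted p of 0.415 in edgeR and 0.0251 in DESeq2), and 4.52 without C4-/- replicate 3. Across 16 tested genes of heparan sulfate synthesis, 1 was higher and 2 were lower at an unadjusted p under 0.05. Of all genes, 2.51% were higher and 8.18% lower. The list's median was -0.69, against -0.32 over all genes. Without C4-/- replicate 3, 2 were higher (Hs3st3b1 and the 2-O-sulfotransferase Hs2st1) and 0 were lower, with a median of -0.40. The 2 lower were Ext1, a chain polymerase, at -2.37 ± 1.15 (-2.10 without that replicate), and the sulfotransferase Ndst1, at -2.14 ± 0.98, which was -0.60 without that replicate.

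Several other genes were separated upward. Atxn7, a subunit of the SAGA coactivator, stood at 38.9, 42.0, 53.7, 35.3 and 32.3 CPM in hC4A/- and at 9.11, 2.77, 18.8, 7.43 and 14.5 CPM in C4-/-, a log2 fold change of 1.93 ± 0.73. Usp11, a deubiquitinase, stood at 16.4, 26.6, 29.9, 24.9 and 117 CPM against 3.42, 4.62, 8.42, 0.531 and 3.29 CPM, or 3.4 ± 1.19. Shisa5, an endoplasmic reticulum protein linked to apoptosis, ranged from 18.5 to 113 CPM against 6.47 to 18.1 CPM, or 2.27 ± 1.00. Gcsh, the H protein of glycine cleavage, ranged from 12.2 to 38.8 CPM against 0 to 6.58 CPM, or 3.54 ± 1.06, with a DESeq2 adjusted p of 0.0498. In all of them the edgeR adjusted p was 0.415 or above.

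Some genes with small p values were high in 1 or 2 hC4A/- libraries. Vps33b, an endosomal trafficking protein, stood at 3.41, 69.0, 7.47, 0.579 and 143 CPM in hC4A/- and at 0 to 3.98 CPM in C4-/-. Mad2l1, of the spindle checkpoint, reached 98.2 CPM in hC4A/- replicate 5 and 0 to 13.9 CPM in the other 4. Abcf3 reached 327 CPM in that replicate and 7.50 to 30.8 CPM in the others. Ifi204, an interferon-induced DNA sensor, was at 0, 1.59, 11.6, 0 and 145 CPM. These 4 genes overlapped between the labels. Leaving out 1 library at a time took the log2 fold change of Ifi204 as low as 1.96, that of Mad2l1 to 3.00 and that of Abcf3 to 1.99. Igbp1, a partner of the phosphatase PP2A, was spread more widely, at 86.7, 45.1, 16.3, 6.37 and 128 CPM against 2.77 to 8.55 CPM, with a log2 fold change of 3.29 ± 0.89 (adjusted p of 0.415 in edgeR and 0.0371 in DESeq2).

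**Figure D3:**
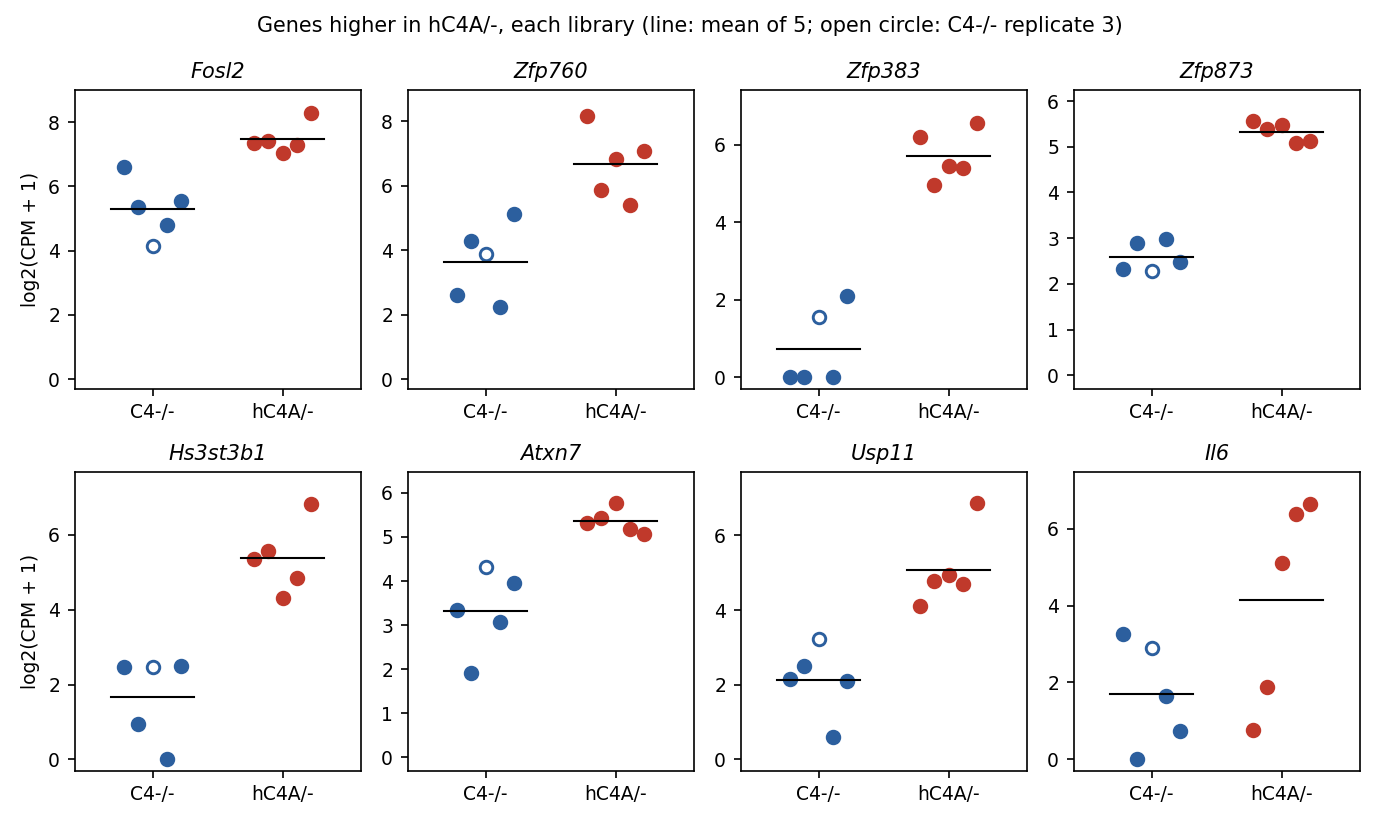
Level of 8 genes that were higher in hC4A/- in each library, as log2(CPM + 1), by label (horizontal axis). Points are libraries, lines the mean of the 5 log values, and the open circle is C4-/- replicate 3. In Fosl2, Zfp760, Zfp383, Zfp873, Hs3st3b1, Atxn7 and Usp11 no library of one label overlaps the other, whereas Il6 overlaps.

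Il6 (chromosome 5, 30013114 to 30019981), the gene of the cytokine interleukin 6, varied within hC4A/-. It stood at 0.682, 2.65, 33.3, 83.3 and 98.9 CPM in hC4A/- replicates 1 to 5 and at 8.54, 0, 6.48, 2.12 and 0.658 CPM in C4-/-. Replicates 3, 4 and 5 of hC4A/- were above every C4-/- library, while replicates 1 and 2 lay within the C4-/- range. The log2 fold change was 3.57 ± 1.2 (edgeR adjusted p = 0.418). The deposited names carry library numbers that fall into 3 consecutive runs holding both labels, and within these the difference in mean log2 CPM was -0.34, 3.44 and 5.81. The first run held replicates 1 and 2 of each label, and the next held replicates 3 and 4. The last held only replicate 5 of each label, so its value is 1 library against 1. Over 23 tested genes of inflammatory cytokines and NF-kB, the median was -0.04, against -0.32 over all genes. Il6 alone among them had an unadjusted p under 0.05, where 2.51% of all genes were higher and 8.18% lower. Because NF-kB is the textbook activator of this gene, its upstream region is shown with the NF-kB motif (GGGA, then any base, then TTTCC, both strands searched) in capitals, the 250 bases before the RefSeq start at chr5:30012864-30013113 on GRCm38.p6, plus strand, 5′ to 3′.
Il6: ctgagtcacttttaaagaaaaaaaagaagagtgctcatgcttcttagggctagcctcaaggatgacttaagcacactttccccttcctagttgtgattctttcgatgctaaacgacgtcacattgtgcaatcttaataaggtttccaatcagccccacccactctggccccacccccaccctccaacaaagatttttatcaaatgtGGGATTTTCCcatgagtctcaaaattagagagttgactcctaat
The 1 match begins 44 bases before the start, and 0.356% of the 32851 promoters of this length hold the motif. The match describes the sequence and says nothing of its use in these cells.

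Interferon-responsive genes had members in both directions and were not tested as a group. Of the tested members, 11 had a log2 fold change above 0 and 19 below, against 4854 and 7825 of all 12680 genes. Of 30 tested members, 2 were higher (Ifi204 and Usp18) and 1 was lower (Oas1a) at an unadjusted p under 0.05. The shares over all genes were 2.51% higher and 8.18% lower. The list's median was -0.60 against -0.32 over all genes, or -0.25 against -0.04 without C4-/- replicate 3. Usp18, which removes ISG15 from proteins, stood at 18.4, 16.5, 22.4, 37.0 and 15.1 CPM in hC4A/- and at 4.56, 14.8, 1.94, 1.06 and 1.97 CPM in C4-/-. The lowest hC4A/- library exceeded the highest C4-/- library narrowly, and the log2 fold change was 2.19 ± 1.06. Oas1a was at 31.6 CPM in C4-/- replicate 5 and under 3 CPM elsewhere in the 10 libraries.

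Among the genes with lower levels in hC4A/- was a helicase subunit of DNA replication. Mcm3 (chromosome 1, 20802968 to 20820312), a subunit of the replicative helicase, stood at 4.09, 2.12, 0, 1.74 and 2.69 CPM in hC4A/- and at 5.69, 74.8, 9.07, 32.4 and 82.9 CPM in C4-/-. No hC4A/- library reached the lowest C4-/- library. The log2 fold change was -4.21 ± 1.07 (adjusted p of 0.415 in edgeR and 0.0301 in DESeq2), and -4.34 without C4-/- replicate 3. Of 22 tested genes of cell cycle and DNA replication, 0 were higher and 5 were lower at an unadjusted p under 0.05, and the list's median was -0.80, beside 2.51% higher, 8.18% lower and a median of -0.32 over all genes. Without replicate 3, 3 of 22 were lower (Mcm3, Mcm7 and Orc1) and the median was -0.42. Mcm7, another helicase subunit, had a log2 fold change of -2.68 ± 1.07 and Orc1, of the origin recognition complex, -3.66 ± 1.53. The proliferation marker Mki67 was at -3.94 ± 1.65 (-2.90 without replicate 3). In the other direction, the thymidylate synthase gene Tyms was at 2.03 ± 1.00 (unadjusted edgeR p of 0.0511), and Mad2l1, described above and not in this list, was at 5.08 ± 1.41.

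Sec24b (chromosome 3, 129982759 to 130061553), a cargo adaptor of COPII vesicles, had the smallest p of all genes named here. It stood at 0, 1.59, 1.36, 1.16 and 2.35 CPM in hC4A/- and at 19.9, 3.70, 57.7, 2.12 and 64.5 CPM in C4-/-. The labels met at their edges, where 1 C4-/- library lay below the highest hC4A/- library. The log2 fold change was -4.39 ± 0.99 (adjusted p of 0.415 in edgeR and 0.00937 in DESeq2), and -3.65 without C4-/- replicate 3. Its paralogue Sec24c was at -2.59 ± 0.89. Among 23 tested genes of COPII and the early secretory pathway, 1 was higher (Copb1, a COPI coat subunit, 1.64 ± 0.71) and 2 were lower. These counts are at an unadjusted p under 0.05, where 2.51% of all genes were higher and 8.18% lower. The list's median was -0.48, against -0.32 over all genes. Without C4-/- replicate 3, 0 members were higher and 2 lower, with a median of -0.23 against -0.04.

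Of the genes separated downward that had an unadjusted p under 0.05 with and without C4-/- replicate 3, Scaf11, Man1c1 and Lacc1 were the most abundant named by the rules. Scaf11 (chromosome 15, 96411699 to 96460843), a splicing-related factor, stood at 38.2, 22.3, 37.4, 45.7 and 8.75 CPM in hC4A/- and at 94.5, 119, 82.3, 82.3 and 46.1 CPM in C4-/-. Man1c1 (chromosome 4, 134561690 to 134704290), a Golgi mannosidase, stood at 18.4, 15.4, 18.3, 14.5 and 12.1 CPM against 23.9, 122, 84.2, 18.6 and 69.7 CPM. The hC4A/- values of Man1c1 were tight, and 2 of the C4-/- values lay just above them. The log2 fold changes were -1.48 ± 0.59 for Scaf11 and -2.01 ± 0.67 for Man1c1, or -1.25 and -1.68 without C4-/- replicate 3. Lacc1 (chromosome 14, 77024200 to 77036904), a purine-handling enzyme of macrophages, stood at 4.09, 6.90, 10.9, 7.52 and 10.4 CPM against 158, 16.6, 28.5, 52.0 and 31.6 CPM. Its log2 fold change was -2.84 ± 0.87 (-2.66 without that replicate), and a gene on the other strand overlaps it. Crebzf, a basic leucine zipper protein, was at 0.531 to 3.4 CPM against 6.83 to 55.3 CPM (-3.74 ± 1.04, DESeq2 adjusted p = 0.0498, edgeR 0.415). Sh3pxd2a, a podosome scaffold, was at 0.679 to 3.72 against 6.58 to 40.8 CPM, Tmco3 at 0.682 to 5.43 against 9.11 to 57.9 CPM, and the catenin Arvcf at 1.59 to 8.41 against 11.1 to 66.5 CPM.

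Several lower genes rested on few counts. Megf9 held no count in any hC4A/- library and 11, 1, 6, 31 and 4 counts in C4-/-, at least 21.6-fold lower in hC4A/- with the same floor, and at least 11.8-fold lower without C4-/- replicate 4. Snx7, a sorting nexin, held 2 counts over hC4A/- and 112 over C4-/-, a ratio of 68.5 with an exact 95% interval of 18.5 to 572 for counting error only, or 45.6 (12.1 to 385) without C4-/- replicate 5. Arap2, a GTPase-activating protein, was at 0 to 1.35 CPM in hC4A/- and at 2.28, 11.1, 5.83, 16.5 and 21.1 CPM in C4-/- (-3.97 ± 1.03). Kyat3, a kynurenine aminotransferase, was highest in C4-/- replicate 2, at 104 CPM, and replicate 5, at 27.0 CPM. Gramd4 was at 0.579 to 1.36 CPM in hC4A/- and at 59.8, 3.70, 18.8, 0 and 78.3 CPM in C4-/-. Chml, a Rab escort protein, was at 0 to 13.5 against 9.07 to 94.5 CPM. Adam8, Brsk2 and the predicted gene Gm9856 were further lower genes that DESeq2 called, each with a mean under 1 CPM in hC4A/- and of 12.8, 17.4 and 17.6 CPM in C4-/-.

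**Figure D4:**
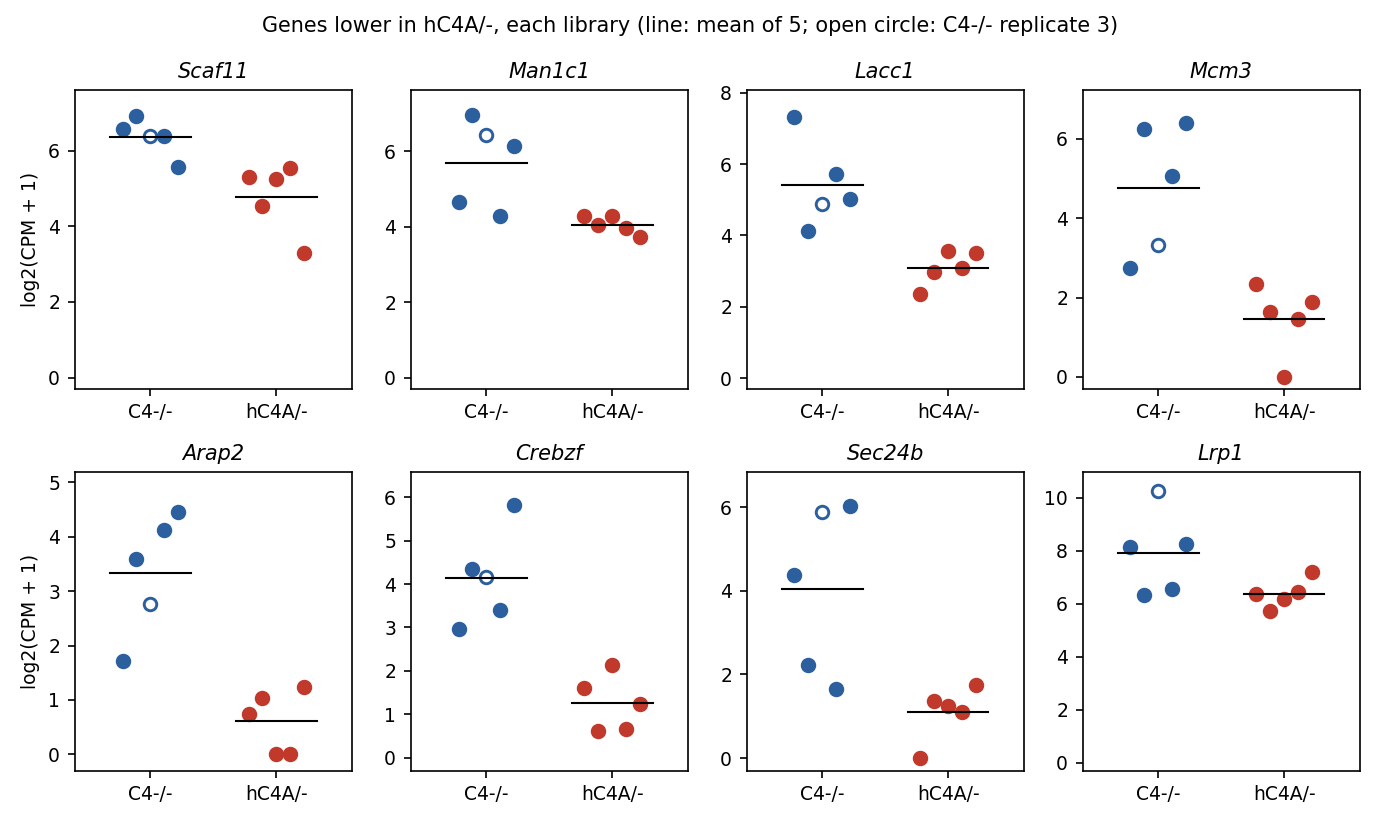
Level of 8 genes that were lower in hC4A/- in each library, as log2(CPM + 1), by label (horizontal axis). Points are libraries, lines the mean of the 5 log values, and the open circle is C4-/- replicate 3. Lrp1 is highest in the open circle, whereas Scaf11, Man1c1, Lacc1, Mcm3, Arap2 and Crebzf are separated in all 5 libraries of each label.

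No tested complement gene had separated groups. For comparison with the lists below, 2.51% of all genes were higher and 8.18% lower at an unadjusted p under 0.05. The median over all genes was -0.32, or -0.04 without C4-/- replicate 3. Cfp, which encodes properdin, did not pass the filter on low counts and was not tested. It had no counts in hC4A/- and 0.658 to 62.1 CPM in C4-/-, so its groups were separated. The C1 complex list had 3 tested members, C1qa, C1qb and C1qc, of which 0 had an unadjusted p under 0.05, with a median of 0.05. C1qc stood at 683, 642, 644, 1153 and 521 CPM in hC4A/- and at 662, 499, 645, 408 and 1285 CPM in C4-/-, a log2 fold change of 0.06 ± 0.66. The list of C2, C3 and later components had 3 tested members, of which 0 had an unadjusted p under 0.05 (median 0.06). The anaphylatoxin receptor C3ar1 was at -0.34 ± 0.76. Complement receptors had 1 of 9 lower, Lrp1, an endocytic receptor, and the integrin subunit Itgam was at 0.26 ± 0.65. Lrp1 stood at 82.6, 52.0, 70.7, 86.2 and 147 CPM in hC4A/- and at 279, 78.5, 1209, 93.5 and 308 CPM in C4-/-. Its log2 fold change of -2.16 ± 0.86 became -0.81 without C4-/- replicate 3. Complement regulators had 0 of 8 at that mark and a median of -0.89 (-0.69 without replicate 3), with clusterin (Clu) at 2.34 ± 1.61 and Csmd2 at -3.15 ± 1.59, both at under 25 CPM in every library.

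Genes of phagocytosis and microglial state had 0 members past the adjusted test. Beside the list counts below, 2.51% of all genes were higher and 8.18% lower at an unadjusted p under 0.05. The list medians stand beside -0.32 over all genes, or -0.04 without C4-/- replicate 3. Synapse pruning receptors and signals had 2 of 17 lower (Lrp1 and Adgrg1) and a median of -0.56, or -0.08 without C4-/- replicate 3. Adgrg1, an adhesion receptor of microglia, stood at 9.51 to 29.6 CPM in hC4A/- and at 76.9, 11.1, 244, 13.3 and 85.5 CPM in C4-/-, and its log2 fold change of -2.39 ± 0.83 became -1.17 without that replicate. The phagocytic cup list had 1 of 26 lower and a median of -0.42 (-0.03). Lysosomal genes had 4 of 37 lower and a median of -0.34 (0.07), among them the mannosidase Man2b1, at -1.39 ± 0.58. Without replicate 3, 0 genes of these 3 lists had an unadjusted p under 0.05 in either direction. Homeostatic microglia genes had 2 of 30 lower and a median of -0.39 (-0.21), and disease-associated genes 0 of 22 and -0.19 (0.13), where Apoe, the lipid carrier, was at 0.74 ± 0.74. The TGF-beta pathway had 1 of 12 lower, Tgfbr2, at -1.98 ± 0.82 and at -0.60 without that replicate. Lineage transcription factors had 2 of 17 lower and a median of -0.01, with Sall1 at 64.2 to 101 CPM in hC4A/- and 69.3 to 400 CPM in C4-/-.

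**Figure D5:**
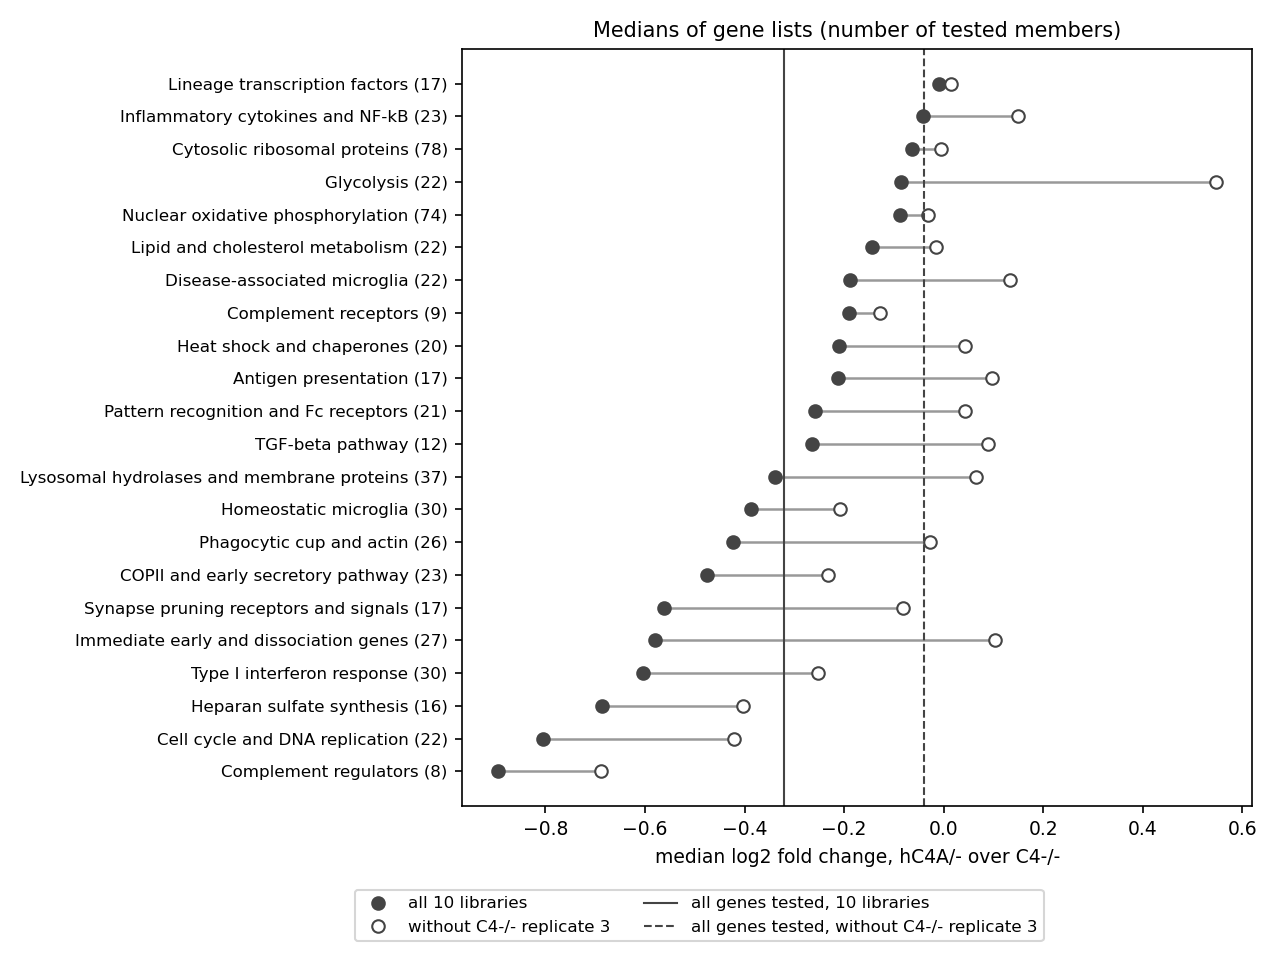
Median log2 fold change (horizontal axis) of each gene list with at least 8 tested members, with all 10 libraries (filled) and without C4-/- replicate 3 (open). Vertical lines are the median of all genes tested, -0.32 (solid) and -0.04 (dashed). The phagocytic cup list, for example, lies at -0.42 with all libraries and at -0.03 without the replicate.

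Among the remaining activation lists, pattern recognition and Fc receptors had 3 of 21 lower (median -0.26, and 0 lower with a median of 0.04 without C4-/- replicate 3). Among the 3 was Tlr9, the endosomal DNA receptor, whose -3.22 ± 1.18 became -1.44. At an unadjusted p under 0.05, 2.51% of all genes were higher and 8.18% lower. The median over all genes was -0.32, or -0.04 without that replicate. Antigen presentation had 0 of 17 (median -0.21, or 0.10 without that replicate), with the immunoproteasome subunit Psmb9 at 10.9, 53.6, 38.7, 49.2 and 113 CPM in hC4A/- and 25.6, 12, 7.13, 18.1 and 24.3 CPM in C4-/-. Heat shock genes had 1 higher and 2 lower of 20 (median -0.21, or 0.04 without that replicate). The 1 higher was the chaperone Hsph1, at 142 CPM in hC4A/- replicate 5 and 0 to 3.41 CPM in the other 4. Its log2 fold change of 3.17 was -1.07 without that library. Ribosomal protein genes had 0 of 78 at an unadjusted p under 0.05 (median -0.06) and nuclear oxidative phosphorylation genes 0 of 74 (median -0.09). Lipid and cholesterol genes had 2 of 22 lower (median -0.14). Glycolysis had 1 higher and 1 lower of 22 (median -0.09, or 0.55 without C4-/- replicate 3). The higher was Gpi1, glucose-6-phosphate isomerase, at 92.1, 19.6, 27.2, 39.4 and 66.9 CPM in hC4A/- and 12, 9.24, 29.8, 5.84 and 13.8 CPM in C4-/-, where replicate 3 alone entered the hC4A/- range. Its log2 fold change was 1.79 ± 0.69, and 2.49 without that replicate.

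Markers of other cells that a sort could let through had overlapping summed levels. These lists had 2 to 9 tested members each. Summed over each list, border macrophage markers ran from 372 to 868 CPM in hC4A/- and 451 to 1401 in C4-/-, neutrophil markers from 57.4 to 159 and 19.4 to 272, and monocyte markers from 2.65 to 49.8 and 17 to 66.5. Neuron markers ran from 166 to 305 and 54.4 to 377 CPM, astrocyte markers from 291 to 516 and 119 to 738, oligodendrocyte lineage markers from 104 to 179 and 59.0 to 361, lymphocyte markers from 115 to 298 and 120 to 428, and endothelial and mural markers from 4.09 to 50.8 and 4.25 to 36.3. Median log2 fold changes were 0.61 for neutrophil, -1.65 for monocyte, -1.31 for endothelial and mural, and -1.24 for neuron markers. They were -0.87 for oligodendrocyte lineage, -0.57 for border macrophage, -0.46 for astrocyte and -0.30 for lymphocyte markers, against -0.32 over all genes. Without C4-/- replicate 3 they were 0.98, -1.29, -0.86, -0.37, -0.73, -0.43, -0.03 and -0.42 in that order, against -0.04. The hemoglobin genes Hba-a1 and Hbb-bs, the 2 tested erythroid markers, were both higher in hC4A/- at an unadjusted p under 0.05, and 1 of them without C4-/- replicate 3. Each had counts in only 2 of the 5 hC4A/- libraries. The erythroid sum was 0 to 42.2 CPM in hC4A/- (median 0) and 0 to 4.62 CPM in C4-/- (median 1.32). Of 3 tested lymphocyte markers 1 (Ighm) and of 5 tested astrocyte markers 1 (Fgfr3) were lower at that mark. Of 7 tested mitochondrial genome transcripts 1 was lower at that mark, and of 75 receptor genes 2 were higher and 6 lower. The shares over all genes were 2.51% higher and 8.18% lower. Of the 75 receptor genes, 68 had a log2 fold change below 0, against 7825 of all 12680 genes. The receptor median was -1.64, against -0.32 over all genes, and -0.74 without C4-/- replicate 3, against -0.04. The satellite-like genes had 0 of 13, and sex-linked genes 0 of 5. Whether these markers take part in any difference above was not tested.

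Against hC4B/-, the libraries with human C4B on 1 allele, hC4A/- also had no called gene (0 of 12680 in edgeR, 0.0%, smallest adjusted p of 0.146), with 2120 genes (16.7%) at an unadjusted p under 0.05. This contrast shares its hC4A/- libraries with the one above, and 2 of the 4 hC4B/- libraries held counts for over 27000 genes. Zfp383 was at 0 to 3.58 CPM in hC4B/-, and hC4A/- over hC4B/- was 5.43 (adjusted p = 0.236). Sec24b was at 31.6 to 68.8 CPM in hC4B/-, a difference of -5.03 (adjusted p = 0.146). Fosl2 was at 23.8 to 139 CPM, a difference of 0.93 (adjusted p = 0.520), and Il6 at 0.724 to 5.49 CPM, a difference of 3.84 (adjusted p = 0.236). In the 2 hC4A/A libraries, Fosl2 stood at 123 and 14.1 CPM, Zfp383 at 3.83 and 2.56 CPM and Il6 at 23.9 and 7.69 CPM. In WT the levels ranged from 0 to 21.8 CPM for Zfp383, from 67.3 to 312 CPM for Fosl2 and from 2.11 to 122 CPM for Il6.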

How the data were processed

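Raw counts per gene, as deposited by the authors in 1 table per library, were the starting point. The submitters' processing notes name STAR, edgeR and GRCm38, with versions not given in the sources used here. Of the columns deposited, the unstranded one was taken, so overlapping genes on opposite strands cannot be told apart. Summary lines were left out of library sizes, and unmapped reads were 14.8% to 29.5% of reads in the 10 libraries. Symbols and coordinates come from GENCODE on GRCm38 and covered 54809 of 54838 identifiers.

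With R 4.3.3, edgeR 4.0.16 fitted 1 robust quasi-likelihood model (filterByExpr, TMM), which held all 20 libraries, with a coefficient for each genotype, 15 residual degrees of freedom and a common dispersion of 1.07. Benjamini-Hochberg adjustment ran over 12680 genes. The standard error is the log2 fold change over the square root of F. DESeq2 1.42.0 and limma-voom (limma 3.58.1) were alternatives, beside other filters, factors, blocks and sets of libraries. The scripts were tested on simulated data.

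The comparison, the 38 gene lists and the rules were chosen with earlier results of these data known. The rules named the 8 protein-coding genes per direction of smallest p, up to 8 per direction of highest level among separated genes with an unadjusted p under 0.05 with and without C4-/- replicate 3, the member of smallest p per direction in each biological list, C4b, C4a, defining microglia genes, and genes called by any tool. Other genes named were chosen after their values were seen. Same-numbered libraries correlated in their deviations at -0.012 to 0.024, so the numbers do not pair them. Reads carry no molecular identifiers, and intervals and floors reflect counting error alone. Some measured genes are not reported here.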

Additional observations from a re-analysis of the deposited data

Results flagged for a closer look

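In 31 genes named for their p value, level or target, each group of 5 libraries was examined on the log2 CPM scale, by the gap of the highest or lowest library as a share of the range, 62 gene and group pairs in all, of which chance alone would give about 1 in 20. In 2 pairs 1 library stood apart on that scale. Genes with 1 high library in CPM, such as Ifi204, did not. Cep128, a centriole gene overlapped by other genes, was at 136.1 CPM in C4-/- replicate 1 and at 0 to 2.59 CPM in the other 4 libraries of that label. Replicate 1 held 239 of its 246 counts in that label. The ratio of C4-/- to hC4A/- counts per library size was 150 with it (exact 95% interval of 41.2 to 1249) and 5.53 without it (1.05 to 54.5), for counting error only. C4a was at 0.531 CPM in hC4A/- replicate 2, which is 1 count, and at 0 in the other 4.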

How the results depend on the processing

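The number of genes called was 0 in edgeR with all 20 libraries and 0 in each fit that left out 1 of the 10 libraries, used only the 10 compared libraries, left out the 4 libraries with over 27000 detected genes, used RLE factors, a stricter filter, a block of library-number runs, or no satellite-like genes. It was 53 with no low-count filter, 16 in DESeq2 and 1 in limma-voom. In fits added after the data were seen, with C4-/- replicate 3 left out, DESeq2 called 17 and limma-voom 1. The number of genes at an unadjusted p under 0.05 was 1355. It ran from 874 (without C4-/- replicate 3) to 1505 when 1 library was left out, and was 405 with only the 10 compared libraries, 3606 with no filter, 382 with the stricter filter, 681 in limma-voom, 446 in limma-voom without C4-/- replicate 3, and 312 in the 10-library fit without it. With the replicate block it was 902 and 0 genes were called, although the numbers do not pair the libraries. Folds without the library of most counts were also added after the data were seen. The cause of these moves was not tested. Of 75 named genes 73 kept their direction in every alternative that tested them. Many were chosen for a small p or separated groups in these same libraries, so a kept direction is no independent check. C1qc went from 0.06 to between -0.17 and 0.47 when 1 library was left out, negative without C4-/- replicate 2 (-0.04), C4-/- replicate 4 (-0.08) or hC4A/- replicate 4 (-0.17). Hsph1 went from 3.17 to between -1.07 (without hC4A/- replicate 5) and 3.72 when 1 library was left out. With all libraries kept it was -0.14 with the replicate block, 0.02 with the block of library-number runs and 0.14 in limma-voom. Of 34 list medians, 22 moved by over 1 SD of the list score in some alternative. Genes at a few counts per library limit the depth: differences there were not detectable unless large. The spread between libraries limited more abundant genes too. In simulated counts with the estimated spread, 200 genes above the median level were changed by a known fold. The edgeR fit called 0 of them at 2-fold, 74 at 8-fold and 183 at 32-fold. The lack of called genes therefore does not show that such differences were absent.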

Other observations

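Further genes separated between the labels were not named by the rules and were chosen after their values were seen. They are given singly, not as a group. Rock1, a kinase that drives actomyosin contraction, stood at 304 to 448 CPM in hC4A/- and 37.6 to 279 CPM in C4-/-, a log2 fold change of 1.04 ± 0.71. The phosphatase Ptprj stood at 222 to 380 CPM against 134 to 218 CPM (0.59 ± 0.55), and the GTPase Rab18 at 141 to 243 CPM against 12.3 to 130 CPM (1.29 ± 0.79). Vinculin (Vcl), an adhesion protein, stood at 43.0, 36.6, 53.7, 26.6 and 8.07 CPM in hC4A/- and 3.42, 0, 6.48, 0.531 and 3.29 CPM in C4-/- (3.56 ± 1.2).

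Among the 104 separated downward, Eif4g3, a translation initiation factor, stood at 32 to 71.7 CPM in hC4A/- and 80.4 to 155 CPM in C4-/- (-1.18 ± 0.54). Gnai2, the G protein subunit through which P2ry12 signals, stood at 38.9, 22.3, 26.5, 19.1 and 22.9 CPM against 62.6, 55.4, 106, 82.9 and 59.2 CPM (-1.50 ± 0.63, and -1.12 without C4-/- replicate 3). Of 261 tested genes within 10 Mb of C4b, 4 were higher and 20 lower at an unadjusted p under 0.05. Over all 12680 genes, 318 (2.51%) were higher and 1037 (8.18%) lower. The median log2 fold change of the 261 was -0.29, against -0.32 over all genes. Zfp97 and Zfp760 lie on the same chromosome, 17.6 and 13 Mb from C4b.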
